A study of Mus musculus with 4 samples.

Results

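The probes described here are those whose names begin with ASMM10EP3B on a microarray that compared m6A-bound with unbound RNA of mouse brown preadipocytes. They were chosen by that name alone, and a probe was kept when neither array gave its spot an outlier flag. Of 8497 such probes 2 carried a flag, which left 8495 of the 60669 distinct array probes without flags (14.0%). The letters EP3 in the names belong to the array's design; the sources used here do not connect them with the receptor EP3 that was deleted in the mice. They also do not state which class of RNA the series covers, and each of the 8497 probes had its own ID in place of a gene name, so 0 had another name. The values below therefore describe a group of probes, and no gene of the m6A or prostaglandin pathways could be followed in it.

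Brown preadipocytes are the committed precursors of thermogenic fat cells. Cells without lineage markers and with CD29, CD34 and Sca1 at the surface were sorted from mice aged 8 weeks. The control pool came from EP3F/F mice, which carry floxed alleles of the EP3 gene, and the EP3 cKO pool from Myf5CreEP3F/F mice, which carry the same floxed alleles and Cre under Myf5. Each pool came from approximately 30 mice. The labels name the mice of the bound fraction as male and enter no sex for the unbound fraction. Total RNA of each pool was immunoprecipitated with an antibody against m6A. Cy5 marked the bound RNA (IP) and Cy3 the RNA that stayed in the supernatant (Sup), and both were hybridised to 1 array, so that 4 samples lay on 2 arrays. No further agent was given, as far as the labels say. Deletion by this Cre reaches only cells with a history of Myf5 expression, which include precursors of brown fat and of skeletal muscle.

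m6A is a methyl mark placed on adenosines of RNA by a nuclear writer complex with Mettl3 and Mettl14 at its core, removed by the demethylases Fto and Alkbh5, and bound by reader proteins of the YTH family that affect splicing, decay and translation. In precursor cells it is one of the layers that can set how much protein a transcript yields. The receptor EP3 (gene symbol Ptger3) binds prostaglandin E2, couples mainly to the inhibitory G protein and lowers cyclic AMP. On an array such as this one, a transcript rich in m6A is expected to give more signal in IP than in Sup, but the dye and the fraction are the same thing here, so the ratio of a probe also carries its own dye bias. No probe with a gene name covered Ptger3 or the 7 markers of the preadipocyte and its sort that were looked for, a count of 0 in each case. Of 16 markers of mature fat cells, leukocytes, endothelium, Schwann cells or neurons, and muscle, 1 had a named probe (Mbp, a myelin gene). Neither the genotype nor the cell type could be checked from expression.

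Since each genotype had 1 pool and 1 array, differences between genotypes could not be set against a spread between replicates, and it is the number of arrays that limits precision. In RNA from pooled cells, fewer cells of a type and less RNA per cell cannot be told apart. Each of the 8497 probes was spotted 1 time, so its technical error had to be taken from 46 other probes with 390 repeated usable spots on the same arrays. Their pooled spot SD (log2) was 0.15 for the IP/Sup ratio in control, 0.14 for that in cKO, 0.17 for the difference of the ratios and 0.11 for the difference in abundance. It was larger for dim probes: for the difference of the ratios it stood at 0.11 in 30 probes brighter than the median usable probe and at 0.26 in 16 dimmer ones. These SDs hold error between spots and none between arrays or animals.

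The first question was how many of the probes gave a signal. Detection means here that the scanner software flagged the spot as well above background. Of the 8495 probes, 6029 were detected in the bound fraction of control (71.0%) and 5755 in that of cKO (67.7%). In the unbound fraction 6137 were detected in control (72.2%) and 6337 in cKO (74.6%). The cKO array thus had fewer detected probes than control in IP and more in Sup. The large sister series, 48037 probes whose names begin with ASMM10EP3A, had higher shares in every signal, 80.9%, 78.0%, 82.6% and 83.9% in the same order, and the same pattern between the arrays. No EP3B spot was saturated, a count of 0.

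Taken over all 4 signals, 5359 EP3B probes were detected everywhere (63.1%, against 74.3% of EP3A) and 1743 nowhere (20.5%, against 12.1%). Among the rest, 327 probes were detected in Sup of both arrays and in neither IP (3.85%, against 3.42% of EP3A), and 133 in IP of both arrays and in neither Sup (1.57%, against 1.04%). Detection in both fractions of a single array was rare. It was seen for 23 probes on the control array (0.271%) and for 33 on the cKO array (0.388%), whereas EP3A had 168 (0.350%) and 128 (0.266%). For 249 probes cKO IP was the 1 signal not well above background (2.93%, against 2.59% of EP3A). For 67 it was control IP (0.789%, against 0.789% of EP3A). Such probes have only a bound on the missing side, and no fold is given for them.

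The 5359 probes detected in all 4 signals are called usable below. They are a selected part of the series, since a probe silent in 1 signal is not among them. The authors' deposited table held 6173 of the 8495 probes (72.7%, against 82.4% of EP3A). It held all 5359 usable ones and all 435 detected in 3 signals. Of the probes detected in 2 signals it held 232 of 559, of those detected in 1 signal 147 of 399, and of the 1743 detected in none it held 0.

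Usable EP3B probes were dimmer than usable EP3A probes. The median processed signal, an intensity with background subtracted and dyes normalised, was 364 in IP of control, 329 in IP of cKO, 379 in Sup of control and 344 in Sup of cKO. In the same order EP3A had medians of 510, 438, 480 and 417. The middle 50% of EP3B probes spanned 159 to 1245 in control IP and 150 to 1231 in cKO Sup, and the brightest reached 386541 and 401346. On the mean log2 signal over the 4 samples, the median was 8.46 for EP3B and 8.83 for EP3A, and 44.6% of EP3B probes lay above the median of all usable probes, against 51.0% of EP3A. For this reason EP3A values are also given at matched brightness. Each EP3A probe was then weighted so that the 10 brightness groups, cut to hold equal numbers of EP3B probes, counted equally. Each channel was first divided by its median over the 43838 usable probes of the array.

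The next question was how m6A-bound and unbound signal compared within each array. In control preadipocytes the median log2(IP/Sup) of EP3B probes was -0.13, with the middle 50% between -0.74 and 0.53. EP3A at matched brightness had a median of -0.04, between -0.66 and 0.70, so that the upper part of the EP3B distribution lay lower than that of EP3A. In cKO the EP3B median was -0.10, between -0.62 and 0.53, and the matched EP3A median -0.05, between -0.60 and 0.64. The difference of the medians, EP3B minus EP3A, was thus -0.086 in control and -0.058 in cKO. These gaps compare probe groups on the same 2 arrays and carry no test, since probes of an array are not replicates.

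IP exceeded Sup at least 2-fold for 759 EP3B probes in control (14.2%), where the share over all usable probes was 17.6%, and for 754 in cKO (14.1%), where it was 16.3%. EP3A at matched brightness had 18.5% and 16.9%. IP lay at least 2-fold below Sup for 937 EP3B probes in control (17.5%, against 17.1% of all usable probes) and for 716 in cKO (13.4%, against 14.3%). The matched EP3A shares were 15.4% and 13.0%. These counts depend on the scaling. For each other scaling the percentage given is the share above among probes past 2-fold on either side, not among all usable probes. With median scaling that share was 44.8% in control (matched EP3A 54.5%) and 51.3% in cKO (matched EP3A 56.6%). The authors' deposited table gave 411 above and 1550 below in control (21.0% above, matched EP3A 30.5%). In cKO it gave 170 and 2605 (6.13%, matched EP3A 9.74%). The medians of 5 ERCC spike-in probes gave 289 and 1992 in control (12.7%, matched EP3A 20.8%). In cKO they gave 807 and 667 (54.7%, matched EP3A 59.9%), near the counts with median scaling. With median scaling EP3B thus had a smaller share of IP-rich probes than matched EP3A on both arrays, while its share of IP-poor probes was somewhat above that of matched EP3A. The SD over probes was 1.02 in control and 0.94 in cKO for EP3B, against 1.09 and 1.00 for matched EP3A, so the ratios of EP3B spread less on both arrays.

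The lower ratio of EP3B was seen over most of the brightness range. In 9 of the 10 brightness groups of the control array the EP3B median was below that of EP3A, with the widest gap, -0.26, in the eighth group, where EP3B stood at -0.27 and EP3A at -0.01. In the dimmest group, with a median signal of 80.2, EP3B was the higher, 0.11 against 0.05. On the cKO array EP3B was lower in 8 of the 10 groups. In the brightest group, with a median signal of 16178, the EP3B median was -0.16 in control and 0.04 in cKO, while EP3A stood at -0.14 and -0.13. The SD of the ratio was smaller for EP3B in 9 of 10 groups in control and in 10 of 10 in cKO.

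The arrays ranked EP3B probes in much the same order. Across the 5359 probes, Pearson's r between log2(IP/Sup) in control and in cKO was 0.880 and Spearman's rho 0.863. For EP3A these were 0.892 and 0.878. The points share probe affinity, dye bias and brightness between the arrays, so the correlation is a description. Of the 759 probes with IP at least 2-fold above Sup in control, 558 were also so in cKO. They made up 73.5% of the control set and 74.0% of the cKO set, against 74.2% and 81.2% in EP3A. Of the 937 probes on the low side in control, 569 were also there in cKO. That is 60.7% of the control set and 79.5% of the cKO set, against 65.8% and 77.5% in EP3A. A move past 2-fold from low in control to high in cKO was seen for 1 EP3B probe. The other way it was seen for 0. Among 35680 EP3A probes these moves were seen for 0 and 5, in that order. One end of the scale is marked by a bright probe with 3929 and 1504 in IP of control and cKO against 202 and 133 in Sup. Its log2(IP/Sup) was 4.26 in control and 3.49 in cKO. The other end is marked by a probe with 169 and 189 in IP of control and cKO against 4275 and 4093 in Sup, a ratio of -4.68 and -4.45. These 2 probes were taken as the extremes of the control ratio among the brighter probes after their values were seen, and both kept their side on the cKO array.

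The main comparison asked how the ratio differed between EP3 cKO and control. The median difference of log2(IP/Sup), cKO minus control, was 0.065 for EP3B, 0.027 for EP3A at matched brightness and 0.043 over all usable probes. At least 2-fold higher in cKO were 124 EP3B probes (2.31%), where the share over all usable probes was 1.99%. At least 2-fold lower were 145 EP3B probes (2.71%), where the share over all usable probes was 3.29%. In sum 5.02% of EP3B passed 2-fold, close to the 5.28% of all usable probes. The split differed: 46.1% of the EP3B probes past 2-fold were higher in cKO, against 36.0% of matched EP3A. The constants per channel of the authors' deposited table move the median difference of all usable probes by -0.48. Under them 11 EP3B probes were higher and 590 lower. Of those past 2-fold 1.83% were higher, against 1.84% of matched EP3A. The medians of 5 ERCC spike-in probes move the median difference by 0.64. Under these medians 1335 EP3B probes were higher and 10 lower. Of those past 2-fold 99.3% were higher, against 98.7% of matched EP3A. The genotype direction of the series therefore rests on the scaling, while the gap of 0.038 between the medians of EP3B and EP3A is untouched by any constant per channel.

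The gap grew with brightness. In the brightest group the median difference of the ratios was 0.21 for EP3B and 0.13 for EP3A, and in the ninth group 0.11 and 0.0035. In the dimmest group it was -0.00025 for EP3B and 0.042 for EP3A, the 1 group of 10 in which EP3B was the lower. Position on the slide moved with the values too. Over the upper left, upper right, lower left and lower right of the array the EP3B median ran from 0.018 in the upper right to 0.11 in the upper left, a span wider than the gap between the series. EP3B was above EP3A in each of these areas, with EP3A at -0.017 in the upper right and 0.050 in the upper left. The part of position in the values was not tested.

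Past 2-fold, the difference lay more often in the bound fraction than in the unbound one, in EP3B as in EP3A. Over all usable EP3B probes, 6.61% passed 2-fold in IP and 1.38% in Sup, in either direction. The difference of the ratios is the IP difference minus the Sup difference, so the fraction that spreads more weighs more in it. Among the 124 EP3B probes with a higher ratio, the IP signal was at least 2-fold higher in cKO for 66 and the Sup signal at least 2-fold lower for 1. Their median difference in Sup was -0.12, and the median ratio went from -0.91 in control to 0.28 in cKO. Among the 145 with a lower ratio, IP was at least 2-fold lower for 88 and Sup at least 2-fold higher for 3, with medians of -1.14 in IP and 0.13 in Sup. Their median ratio went from 0.92 in control to -0.36 in cKO. For EP3A the IP signal passed 2-fold for 59.4% of 670 probes with a higher ratio and for 68.8% of 1246 with a lower one, against 53.2% and 60.7% in EP3B. Abundance, the log2 of the summed scaled signals, was within 1.5-fold for 75 of the 124 (60.5%) and for 81 of the 145 (55.9%), where the share over all 5359 usable EP3B probes was 89.5%. In EP3A the shares were 55.7% and 43.4%, and 87.1% over all usable EP3A probes. Abundance was at least 2-fold higher for 28 of the 124 and at least 2-fold lower for 26 of the 145. In EP3A this held for 182 of 670 and 258 of 1246. Brighter than the median usable probe were 42 of the 124 and 63 of the 145, where 44.6% of all usable EP3B probes were. In EP3A 298 of 670 and 680 of 1246 were brighter, where 51.0% of all usable EP3A probes were.

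The probe with the highest difference of the ratios in the series, ASMM10EP3B102951520, had signals of 1191 in control IP and 7931 in cKO IP, against 5489 in control Sup and 4736 in cKO Sup. Its log2(IP/Sup) was -2.22 in control and 0.74 in cKO, a difference of 2.96. The change lay in IP, at 2.93, with Sup at -0.03. ASMM10EP3B100030234 was second among the brighter probes, going from 3030 to 19348 in IP and from 868 to 1663 in Sup. Both of its fractions were brighter in cKO, by 2.87 in IP and 1.13 in Sup, so that the ratio differed by 1.75 and abundance by 2.63. At the low end, ASMM10EP3B100911275 went from 1495 to 530 in IP and from 371 to 483 in Sup. Its ratio was 1.99 in control and 0.13 in cKO, a difference of -1.87, with IP and Sup moving in opposite directions (-1.30 and 0.57). ASMM10EP3B103154764 had 885 and 290 in IP and 498 and 569 in Sup, for control and cKO. Its ratio was 0.81 in control and -0.98 in cKO, a difference of -1.79. These 4 were taken as the extremes of the difference they describe, and none has a second array behind it. With normexp background correction followed by loess and Aquantile the 4 stood at 2.76, 1.84, -1.36 and -1.23, past 2-fold in the same directions.

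Abundance, the next comparison, was more often higher than lower in cKO among EP3B probes. At least 2-fold higher were 106 (1.98%, against 1.73% of all usable probes) and at least 2-fold lower 61 (1.14%, against 1.87%). Of the probes past 2-fold, 63.5% were higher, against 43.6% of matched EP3A. The median difference was 0.087 for EP3B and 0.033 for matched EP3A, a gap of 0.054, and EP3B was above EP3A in 10 of the 10 brightness groups. With no median scaling, which moves the median of all usable probes by -0.19, the split was 78 higher and 99 lower (44.1% higher, matched EP3A 22.1%). The authors' deposited table, which moves it by -0.22, gave 54 and 117 (31.6%, matched EP3A 15.7%). The ERCC medians, which move it by 0.21, gave 172 and 10 (94.5%, matched EP3A 82.5%). The majority side thus turned with the scaling, and the share of higher probes was larger for EP3B than for matched EP3A under each.

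The excess of higher over lower EP3B probes lay mostly among the bright ones. In the brightest group the median abundance difference was 0.32 for EP3B and 0.21 for EP3A, and in the dimmest 0.036 and 0.028. Among the 2391 EP3B probes brighter than the median usable probe, 63 were at least 2-fold higher (2.63%) and 24 lower (1.00%). The 18209 such EP3A probes had 363 higher (1.99%) and 398 lower (2.19%). In the 2968 dimmer EP3B probes the counts were 43 higher (1.45%) and 37 lower (1.25%), close to even. The 17471 dimmer EP3A probes had 224 higher (1.28%) and 343 lower (1.96%). EP3B thus leaned more to the higher side than EP3A among dimmer probes too. Brightness was itself correlated with the abundance difference across EP3B probes, with r = 0.219 and rho = 0.232 (n = 5359), and across EP3A probes at 0.129 and 0.128 (n = 35680). Brightness is the mean of the same 4 signals, so these values are a description.

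The fractions were also compared singly. In IP, 195 EP3B probes were at least 2-fold higher in cKO (3.64%, against 3.37% of all usable probes) and 159 at least 2-fold lower (2.97%, against 4.51%). Matched EP3A had 3.13% higher and 4.89% lower. In Sup, 61 EP3B probes were at least 2-fold higher (1.14%, against 1.00% of all usable probes) and 13 at least 2-fold lower (0.243%, against 0.623%). Matched EP3A had 0.959% higher and 0.722% lower. With median scaling the lower side was thus the thinner one for EP3B in both fractions. The percentages given for the other scalings are shares of higher probes among those past 2-fold in either direction, not among all usable probes. With median scaling these shares were 55.1% in IP (matched EP3A 39.1%) and 82.4% in Sup (matched EP3A 57.1%). In IP the counts were 126 higher and 273 lower with no median scaling (31.6% higher, matched EP3A 18.5%). They were 74 and 578 with the authors' deposited table (11.3%, matched EP3A 5.74%). With the ERCC medians they were 1326 and 20 (98.5%, matched EP3A 96.1%). In Sup they were 32 and 36, 50 and 18, and 43 and 21 in the same order, or 47.1%, 73.5% and 67.2% higher. Matched EP3A stood at 28.3%, 52.1% and 46.7%. The median differences were 0.15 in IP and 0.063 in Sup for EP3B, and 0.062 and 0.022 for matched EP3A. The SD over EP3B probes was 0.54 in IP and 0.34 in Sup. Across the 5359 probes the differences in IP and Sup, which come from the same 2 arrays, gave r = 0.468 and rho = 0.357.

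Probes past 2-fold in abundance differed in how the fractions shared in it. Among the 106 higher ones, both fractions were at least 2-fold higher for 43, IP alone for 59 and Sup alone for 4. Among the 61 lower ones, both fractions were at least 2-fold lower for 9 and IP alone for 52, with 0 for Sup alone. Both fractions thus passed 2-fold together for 14.8% of the lower probes and for 40.6% of the higher ones. For EP3A both fractions were lower for 181 of 741 (24.4%) and higher for 242 of 587 (41.2%). At least 4-fold higher were 14 EP3B probes (0.261% of the usable ones, against 0.210% of EP3A) and at least 4-fold lower 1 (0.0187%, against 0.137%).

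The fractions of the probes with the largest abundance differences did not all move alike. The probe highest in cKO went from 655 to 7683 in IP and from 3759 to 40000 in Sup, log2 differences of 3.75 and 3.60, with an abundance difference of 3.62. Its ratio stood at -2.54 in control and -2.39 in cKO. The second went from 5359 to 23730 in IP and from 15536 to 108952 in Sup, an abundance difference of 2.86. The lowest went from 2570 to 233 in IP and from 2699 to 290 in Sup, differences of -3.27 and -3.03, with an abundance difference of -3.14. Its ratio was -0.09 in control and -0.32 in cKO. In these 3 probes the ratio differed by 0.15, -0.65 and -0.23, in that order. With normexp, loess and Aquantile the values were -0.28, -0.59 and -0.15, so the first changed sign with the processing. The second lowest went from 2971 to 567 in IP and from 641 to 303 in Sup, differences of -2.19 and -0.89, with an abundance difference of -1.86 and a difference of the ratios of -1.30. ASMM10EP3B100030234, described above, likewise differed more in IP than in Sup. These 4 probes are the extremes among the brighter ones and were picked after their values were seen.

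A property that the choice of probes did not use is the number in the probe ID. Consecutive numbers were held by 521 pairs of usable EP3B probes and 1867 pairs of usable EP3A probes. Over the EP3A pairs log2(IP/Sup) in control correlated at r = 0.41, the difference between genotypes with 0.37 and brightness with 0.32. Over the EP3B pairs the same values were 0.080, 0.095 and -0.032. At gaps of 2 to 10 they were 0.24, 0.20 and 0.19 over 1727 EP3A pairs and 0.041, 0.054 and 0.11 over 478 EP3B pairs. At gaps of 11 to 1000 all 6 values lay between -0.0096 and 0.038. At gaps over 1000 they were 0.036, 0.018 and 0.033 over 9556 EP3A pairs and 0.063, 0.032 and 0.082 over 1803 EP3B pairs. Neighbouring numbers thus went with like values in EP3A and hardly in EP3B. The control ratio of EP3B correlated about as much over the widest gaps as over consecutive numbers. The series had 137 numbers in common, and over the 51 with both probes usable the control ratios correlated at 0.075. The pairs of a series share arrays and scaling, and no source used here says what the numbers stand for.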

How the data were processed

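The members, the comparison series and the thresholds were chosen with earlier results of these data known. Scanning used Agilent Feature Extraction 11.0.1.1, per the file headers and the submitters' processing notes. Its deposited output gives processed signals and pixel medians as intensity, the former with background subtracted and with linear and Lowess dye factors applied, per the file headers, and flags of 0 or 1. The authors' deposited table of 48973 probes holds log2 values that equalled log2 of the processed signal minus 1 constant per column (in IP 11.92 for control and 12.23 for cKO, in Sup 11.51 and 11.36). Its centring is otherwise unstated, and its column medians were -3.36 and -3.85 in IP and -2.97 and -3.00 in Sup. It had 0 sample columns without a sample.

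Spots with outlier flags were left out, and repeated spots were averaged as log2 values. A usable probe had at least 0.5 of its spots well above background in all 4 signals. Channels were divided by their medians over 43838 usable probes. Matching used 10 groups of mean log2 signal. With 1 array per genotype no test was run. The 2-fold rule is one of size. The calculation was tested on simulated data. The simulated 4-fold changes had noise of the size between spots and no error between arrays or animals. The simulation therefore says nothing on how far the 2-fold counts can be relied on. The rule for named probes took the 2 highest and 2 lowest differences of log2(IP/Sup) among EP3B probes brighter than the median usable probe. Alternatives used limma 3.58.1 under R 4.3.3 (normexp, offset 50, on pixel medians). Other steps used Python 3.11.15, numpy 2.4.6 and pandas 2.3.3. Probe sequences and gene names are not used here.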

Additional observations from a re-analysis of the deposited data

How the results depend on the processing

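The gap between the medians of EP3B and matched EP3A kept its sign for all 6 measures in the 12 alternatives run on it, which were other background corrections, start values, scalings, filters, matching variables and numbers of groups. It ranged from -0.13 to -0.040 for the control ratio, from -0.081 to -0.025 for the cKO ratio, from 0.027 to 0.071 for their difference, from 0.033 to 0.077 for abundance, from 0.046 to 0.12 for IP and from 0.023 to 0.053 for Sup. A constant per channel shifts both series by the same or nearly the same amount, so the scalings say little about it. The ERCC scaling was chosen after the data were seen. Its medians came from processed signals, which already carried the linear and Lowess dye factors.

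Counts of EP3B probes moved more. The counts are given as higher and lower for the control ratio, the cKO ratio, the difference of the ratios and abundance. No share over all usable probes stands beside them, so whether a move was particular to EP3B was not tested. Normexp gave 467 and 424, 386 and 402, 18 and 66, and 57 and 20. Of those past 2-fold, 52.4%, 49.0%, 21.4% and 74.0% were higher, against 62.0%, 54.5%, 13.5% and 43.0% of matched EP3A. Normexp with loess and Aquantile gave 410 and 455, 439 and 334, 47 and 33, and 53 and 18. Here 47.4%, 56.8%, 58.8% and 74.6% were higher, against 57.7%, 60.4%, 45.4% and 42.9% of matched EP3A. Both normexp settings also start from pixel medians, and the part of each step was not tested. The authors' constants gave 411 and 1550, 170 and 2605, 11 and 590, and 54 and 117. ERCC medians gave 289 and 1992 for the control ratio, 807 and 667 for the cKO ratio, 1335 and 10 for the difference, and 172 and 10 for abundance. No median scaling left the counts within 1.5 times except for abundance, with 99 lower. A filter of at least 1 signal well above background kept 6752 EP3B probes and admits noisier ones. It gave 1145 lower for the cKO ratio, 262 and 397 for the difference, and 182 and 116 for abundance. The brighter probes alone, which are fewer, gave 412 and 567, 414 and 428, 42 and 63, and 63 and 24. At 1.5-fold the counts were 1265 and 1593, 1255 and 1421, 644 and 506, and 343 and 221. At 3-fold they were 296 and 346, 304 and 222, 10 and 11, and 37 and 6.

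The share of higher probes among those past the threshold was larger for EP3B than for matched EP3A in abundance under each of these settings. For the difference of the ratios it was larger under each except the authors' constants. With normexp it stood at 21.4% against 13.5%. The EP3B majority turned to higher with normexp, loess and Aquantile, at 58.8% against 45.4%, and at 1.5-fold, at 56.0% against 47.7%; the cause was not tested. The usable share of 63.1% was 79.5% with at least 1 signal well above background. It was 33.8% when all 4 signals were well above background and each also exceeded the median array probe. No paired test was possible because each group had 1 sample, and no test was run. The ratio itself compares IP and Sup of the same pool on the same array. The spot SD of the difference was 0.26 in dim probes and 0.11 in bright ones.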
